A study of Mus musculus with 2 samples.

Results

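Stem-cell and cytokine receptor genes were followed in mouse *MLL-AF9* acute myeloid leukemia cells. The set holds 8 genes, *Cd34*, *Kit*, *Flt3*, *Csf1r*, *Csf3r*, *Csf2ra*, *Csf2rb* and *Itgam*, of the 27998 genes in the deposited matrix, and was chosen by gene symbol. The study asked what loss of *Kat2a*, a histone acetyltransferase gene, does to transcription in these leukemias. Donor mice carried *Kat2a* Flox/Flox alleles and were either Mx1-Cre -/- (WT) or Mx1-Cre +/- (KO). Both genotypes received pIpC, which turns on the interferon-responsive Mx1 promoter that drives Cre, and marrow was taken 4 to 6 weeks afterwards. Lineage-depleted marrow of both genotypes was given the *MLL-AF9* fusion oncogene by retrovirus and injected into lethally irradiated mice. Bone marrow of terminal leukemias, 5 WT and 4 KO, was frozen, thawed and pooled by genotype, and live single cells carrying the YFP reporter of the fusion were sorted for droplet capture with a 10x Genomics 3′ kit, with 6000 cells as the aim. Each genotype is thus 1 library, and the animals inside a pool cannot be told apart.

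These genes encode proteins by which hematologists place a cell between stem cell and mature myeloid cell. CD34 is a sialomucin of stem and progenitor cells, and KIT and FLT3 are the tyrosine kinase receptors for stem cell factor and FLT3 ligand, which support progenitor survival and division. CSF1R, the receptor for M-CSF, directs monocyte and macrophage development, whereas CSF3R, the receptor for G-CSF, directs granulocyte production. CSF2RA binds GM-CSF and signals with the common beta chain CSF2RB, which also serves the IL-3 and IL-5 receptors. *Itgam* encodes CD11b, the alpha chain that pairs with the beta-2 chain from *Itgb2* to form the adhesion receptor Mac-1 of mature granulocytes and monocytes.

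Cells with at least 500 detected genes were kept, 3866 in the WT-labelled library and 3545 in the KO-labelled library, with 11669427 and 7920256 UMIs (unique molecular identifiers, each a captured transcript). The median depth was 2588.5 UMIs per cell in the WT-labelled library and 1884 in the KO-labelled library, and 19 barcodes occurred in the kept cells of both. Levels are UMIs scaled to CPM (UMIs per 1e+06 UMIs) summed over cells, which carry no length term because the assay counts transcript 3′ ends. Which barcode suffix is which genotype came from the study's published code, and *Kat2a* went against that labelling, with 12.2 CPM (10.2 to 14.3) in the WT-labelled library and 95.8 CPM (89.1 to 103) in the KO-labelled library. The excised allele keeps the last exon, so a 3′ assay need not show its loss, and each direction below rests on the labels. The libraries also differed in the Y-linked gene *Eif2s3y*, with 12.0 and 90.02 CPM. Intervals are 95% intervals for counting error only, which do not cover differences between animals, and since each genotype has 1 library, the genotypes were compared without a test.

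Upstream sequence is shown for 4 of the genes, as examples of a pair whose levels varied together between groups of cells, *Cd34* and *Flt3*, and of genes with other patterns, *Csf3r* and *Itgam*. Each line gives the 250 bases before a RefSeq transcription start on the GRCm38.p6 build, 5′ to 3′ on the strand of the gene, with matches to GAGGAA, a core bound by PU.1-type factors, in capitals on either strand.
*Cd34*, chr1:194938571-194938820, plus strand: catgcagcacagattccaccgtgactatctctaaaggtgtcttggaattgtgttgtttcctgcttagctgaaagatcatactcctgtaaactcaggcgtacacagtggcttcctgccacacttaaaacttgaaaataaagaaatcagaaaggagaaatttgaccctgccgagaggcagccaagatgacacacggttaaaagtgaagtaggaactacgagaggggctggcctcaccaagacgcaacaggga
*Flt3*, chr5:147400490-147400739, minus strand: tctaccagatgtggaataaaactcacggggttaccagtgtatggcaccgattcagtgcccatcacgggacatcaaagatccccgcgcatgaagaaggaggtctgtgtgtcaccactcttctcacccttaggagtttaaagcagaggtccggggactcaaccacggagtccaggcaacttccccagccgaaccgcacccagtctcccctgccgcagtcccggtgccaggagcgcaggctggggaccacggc
*Csf3r*, chr4:126024409-126024658, plus strand: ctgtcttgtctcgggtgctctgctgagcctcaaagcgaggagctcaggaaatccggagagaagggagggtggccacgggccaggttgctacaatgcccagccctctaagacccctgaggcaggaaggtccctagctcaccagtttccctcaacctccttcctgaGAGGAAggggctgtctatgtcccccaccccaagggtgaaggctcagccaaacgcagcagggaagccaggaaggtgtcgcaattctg
*Itgam*, chr7:128062390-128062639, plus strand: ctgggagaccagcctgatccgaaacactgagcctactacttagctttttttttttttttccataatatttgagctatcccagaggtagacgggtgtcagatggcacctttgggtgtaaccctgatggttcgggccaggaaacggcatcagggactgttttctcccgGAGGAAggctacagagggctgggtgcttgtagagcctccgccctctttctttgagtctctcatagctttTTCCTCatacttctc
The *Cd34* and *Flt3* windows held no match to GAGGAA, the *Csf3r* window held 1 and the *Itgam* window held 2. Of the windows not shown, that of *Csf2ra*, whose levels also varied with those of *Cd34* and *Flt3* (Pearson's r 0.75 and 0.80 over 10 groups of cells), held 2, and each of the 2 *Kit* windows held 1. Of the 32851 windows of this length, 23.3% held at least 1 match. None of these windows matched TTGCNNAA, a C/EBP-type motif found in 9.56% of all windows, or TGTGGT, a RUNX-type motif found in 14% of them. A match describes the letters of the window and not the binding of a factor. GC content was 46.4% in the *Cd34* window, 59.2% for *Flt3*, 60% for *Csf3r* and 49.6% for *Itgam*, against a median of 52.4% over all windows. RefSeq windows were used for 6 of the 8 genes, and none was used for *Csf1r* or *Csf2rb*. The levels of *Csf1r* also varied with those of *Cd34* and *Flt3* (Pearson's r 0.82 and 0.90), so the motif counts leave out a gene of that pattern.

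*Cd34* was the gene of the set that differed most between the libraries. Of the 8 genes, 1 was higher by 1.5-fold or more in the KO-labelled library, where 6.79% of the 9307 genes with at least 50 UMIs were that much higher, and 0 were lower by as much, where the share of all genes was 11.8%. The median log2 ratio of the 8 genes was 0.04, beside −0.01 over all 9307 genes.

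*Cd34* (ENSMUSG00000016494, chr1:194938819-194961279, plus strand, GRCm38) had 372 UMIs in the WT-labelled library, or 31.9 CPM (28.7 to 35.3), and 602 in the KO-labelled library, or 76.0 CPM (70.1 to 82.3). These intervals did not overlap, and the log2 ratio was 1.25 (1.06 to 1.44). An antisense gene, *Gm16897*, overlaps its 3′ part, and it had 2 and 0 UMIs.

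*Kit* (ENSMUSG00000005672, chr5:75574916-75656722, plus strand) was rare. It had 51 UMIs in the WT-labelled library, or 4.37 CPM (3.25 to 5.75), and 37 in the KO-labelled library, or 4.67 CPM (3.29 to 6.44). The intervals overlapped almost wholly, and the log2 ratio of 0.10 (−0.56 to 0.74) left room for a difference of either sign. Of the members, *Kit* was found in the fewest cells of either library.

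*Flt3* (ENSMUSG00000042817, chr5:147330741-147400489, minus strand) had 27.2 CPM (24.3 to 30.3, 317 UMIs) in the WT-labelled library and 34.3 CPM (30.4 to 38.7, 272 UMIs) in the KO-labelled library. The log2 ratio was 0.34 (0.10 to 0.58). It was 0.20 (−0.05 to 0.45) without the cells rich in *Nras* that are described further on, and 0.66 (0.37 to 0.94) in cells with at least 1000 genes.

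Among the colony-stimulating factor receptors, differences were smaller and of either sign. *Csf1r* (ENSMUSG00000024621) had 28.5 CPM (25.6 to 31.8, 333 UMIs) in the WT-labelled library and 24.9 CPM (21.5 to 28.6, 197 UMIs) in the KO-labelled library, with a log2 ratio of −0.20 (−0.46 to 0.06). That ratio was −0.64 (−0.95 to −0.33) when equal numbers of cells of like depth were compared, 2770 per library. The size of the *Csf1r* difference thus depended on which cells were weighed.

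*Csf3r* (ENSMUSG00000028859, chr4:126024550-126044440, plus strand) had 22.7 CPM (20.1 to 25.6, 265 UMIs) and 25.4 CPM (22.0 to 29.1, 201 UMIs) in the WT-labelled and KO-labelled libraries. Its log2 ratio of 0.16 (−0.11 to 0.43) was −0.53 (−0.98 to −0.09) in cells with at least 1000 genes and 0.59 (0.16 to 1.02) in cells thinned to 1000 UMIs, so no direction can be given for *Csf3r*.

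Over all kept cells, the ratio of the GM-CSF receptor chains was near 0 for *Csf2ra* and below 0 for *Csf2rb*. *Csf2ra* (ENSMUSG00000059326, chr19:61223957-61228429, minus strand) had 319 CPM (309 to 329, 3719 UMIs) in the WT-labelled library and 315 CPM (302 to 327, 2491 UMIs) in the KO-labelled library, a log2 ratio of −0.02 (−0.09 to 0.05). That ratio was −0.19 (−0.28 to −0.11) in cells matched on depth and −0.20 (−0.31 to −0.09) in cells thinned to 1500 UMIs. *Csf2rb* (ENSMUSG00000071713, chr15:78325752-78353847, plus strand) had 30.1 CPM (27.0 to 33.4, 351 UMIs) and 22.1 CPM (18.9 to 25.6, 175 UMIs), and its log2 ratio was −0.45 (−0.72 to −0.18). The log2 ratio of *Csf2rb* was below 0 under each of the 13 alternatives run, from −0.81 to −0.24. The value nearest 0, in cells with at least 1000 genes, had an interval of −0.61 to 0.12, which included 0. *Csf2ra* had −0.12 (−0.22 to −0.01) in the same cells, so the intervals of the chains overlapped there. *Csf2rb2*, a near-identical neighbor on the other strand that encodes the IL-3-specific beta chain in mice, had 39 and 19 UMIs. How reads that match both genes were counted was not tested, so both levels are uncertain.

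*Itgam* (ENSMUSG00000030786, chr7:128062640-128118491, plus strand) had 60.8 CPM (56.4 to 65.4, 709 UMIs) in the WT-labelled library and 55.0 CPM (50.002 to 60.5, 436 UMIs) in the KO-labelled library. The log2 ratio was −0.14 (−0.32 to 0.03). A second identifier under the same symbol, named *Gm49368* in GENCODE M21 and overlapping on the same strand, supplied 13 and 4 of these UMIs. The partner chain gene *Itgb2* had 307 CPM (297 to 317) and 305 CPM (293 to 318), with log2 ratio −0.01 (−0.08 to 0.07). The *Itgam* ratio lay below 0 with its interval in cells thinned to 1000 UMIs, −0.30 (−0.57 to −0.04), in cells thinned to 1500 UMIs, −0.38 (−0.64 to −0.13), and in cells matched on depth, −0.45 (−0.65 to −0.25).

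**Figure D1:**
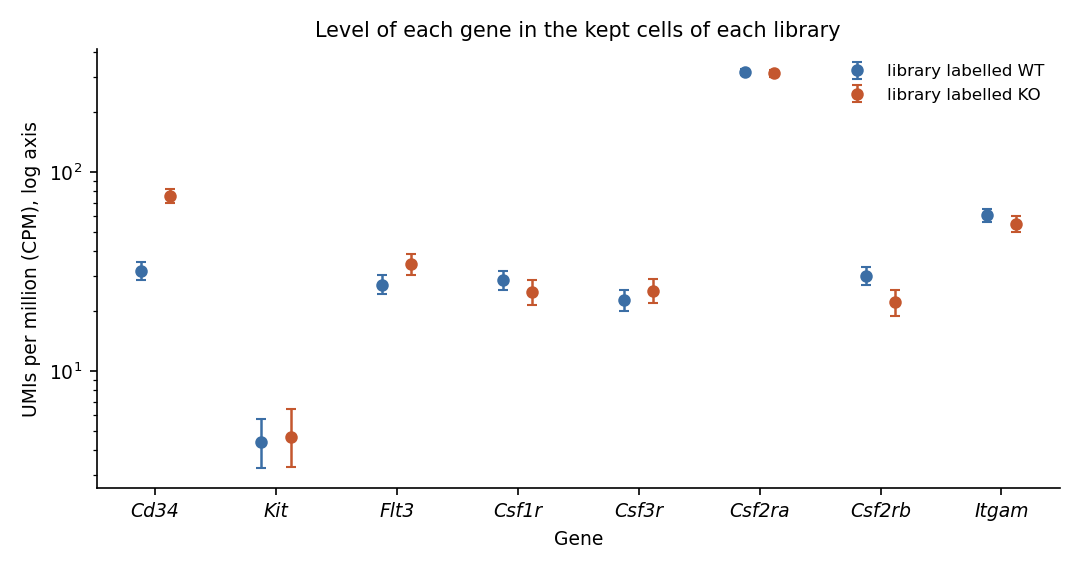
Level of the 8 genes in the kept cells of each library (x axis, gene; y axis, CPM on a log axis), with points for the WT-labelled library (blue) and the KO-labelled library (orange) and bars for the 95% Poisson interval of the count. The *Cd34* intervals lie far apart (31.9 and 76.0 CPM), those of *Csf2rb* (30.1 and 22.1 CPM) and, barely, *Flt3* (27.2 and 34.3 CPM) do not overlap, and those of *Kit*, *Csf1r*, *Csf3r*, *Csf2ra* and *Itgam* overlap.

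The share of cells in which a transcript was found followed depth as well as level. At their own depth, 6.23% of cells of the WT-labelled library and 11.4% of cells of the KO-labelled library held a *Cd34* UMI. With every cell thinned to 1000 UMIs, which left out 66 and 194 shallower cells, the shares were 2.82% (2.31 to 3.39%) and 6.21% (5.41 to 7.08%). *Cd34* was thus found in more cells of the KO-labelled library at either depth, a difference of 3.39 percentage points (2.43 to 4.38) after thinning.

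Shares of the other genes depended on that step. *Csf2ra* was found in 54.1% and 44.1% of cells at their own depth but in 27.7% and 27.3% of thinned cells, a difference of −0.38 percentage points (−2.45 to 1.70). *Csf1r* went from 7.22% and 4.54% to 3.18% and 2.83%, and *Itgam* from 15.0% and 10.4% to 6.66% and 5.61%. Only for *Csf2rb* did a lower share in the KO-labelled library keep an interval below 0 after thinning, 3.13% against 1.85%, or −1.28 percentage points (−2.01 to −0.56).

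For *Flt3*, *Csf3r* and *Kit* the order of the shares turned over. *Flt3* went from 6.39% and 5.61% to 2.11% and 2.75%, *Csf3r* from 6.10% and 4.71% to 2.11% and 2.92%, and *Kit* from 1.16% and 0.959% to 0.316% and 0.448%, each in the WT-labelled and KO-labelled libraries. Of these 3 genes only *Csf3r* had a thinned difference whose interval, 0.09 to 1.57 percentage points, lay above 0. Free RNA was not estimated. In thinned cells rich in secondary granule transcripts, the *Cd34* share was 0.202% in the WT-labelled library and 0.376% in the KO-labelled library. These cells had own-depth medians of 2331.5 and 1896 UMIs. The *Kit* share in the same cells was 0.302% (3 cells) and 0.753% (6 cells, interval 0.28 to 1.63%). It was no lower than the *Kit* share in all thinned cells of the KO-labelled library and close to it in the other. Whether these few *Kit* counts came from the cells or from free RNA was not tested.

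**Figure D2:**
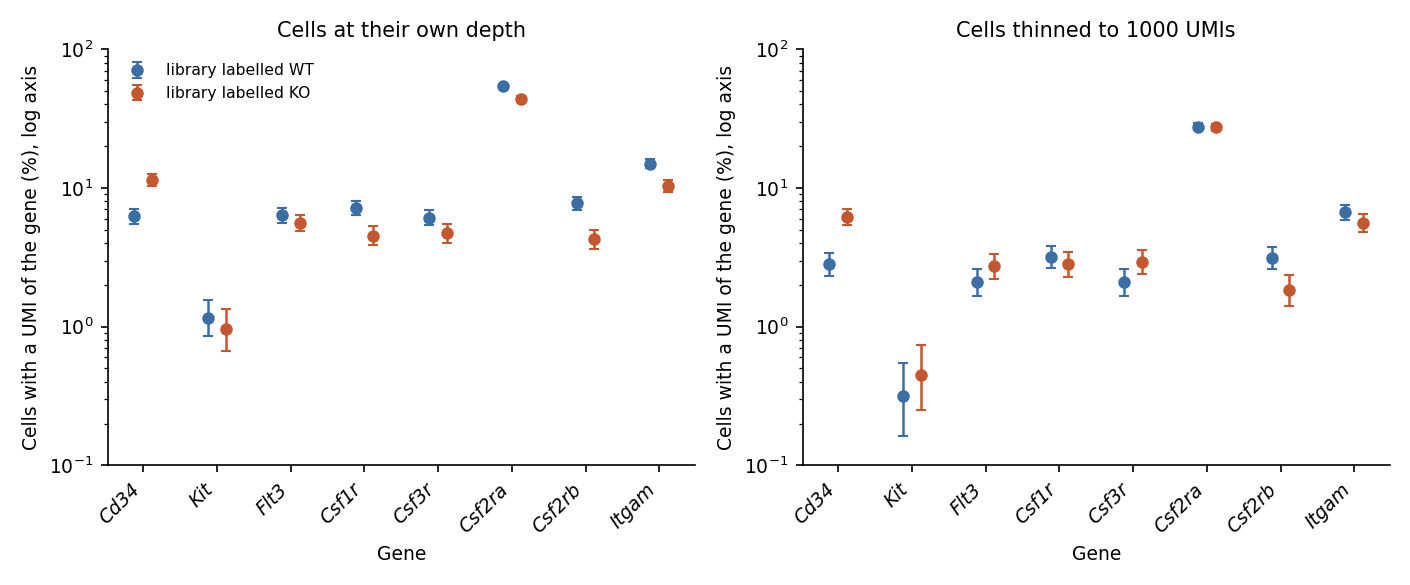
Share of kept cells with at least 1 UMI of each gene (y axis, percent on a log axis) at their own depth (left) and with each cell thinned to 1000 UMIs (right), for the WT-labelled library (blue) and the KO-labelled library (orange), with exact binomial 95% intervals. *Cd34* is higher in the KO-labelled library in both panels, whereas the gap of *Csf2ra* on the left (54.1% and 44.1%) closes on the right (27.7% and 27.3%).

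Cells were then grouped by marker lists of myeloid lineages and stages, without an order of maturation. Each cell took the marker list in which it ranked highest, if at or above percentile 75 of all kept cells, by its share of UMIs in lists of primary granule (*Mpo*, *Elane*, *Prtn3*, *Ctsg*), secondary granule (*Ngp*, *Camp*, *Ltf* and others), monocyte (*Ms4a6c*, *Irf8*, *Ly86*, *F13a1*, *Ccr2*, *Ly6c2*) and macrophage genes. These groups are ranges of a score and not cell types, and 19.6% of cells ranked within 5 percentile points of the limit. The macrophage range rested on *Apoe*, *Cd68* and *Adgre1*, since *C1qa*, *C1qb*, *C1qc* and *Mrc1* had 4, 11, 14 and 2 UMIs in the WT-labelled library and 6, 53, 16 and 0 in the KO-labelled library. Macrophage-high cells were the shallowest of the ranges, with medians of 1715 and 1383 UMIs. At least 2 UMIs of the macrophage list were held by 28.2% and 24.3% of kept cells, so a shallow cell could rank high on few counts. The ranges held 20.8% and 21.1% (primary granule), 25.7% and 22.5% (secondary granule), 16.6% and 15.5% (monocyte), 15.9% and 17.0% (macrophage) and 21.03% and 23.8% (low in all lists) of the WT-labelled and KO-labelled libraries.

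The stem-cell genes *Cd34* and *Flt3* and the monocytic receptor gene *Csf1r* lay on the monocyte side and were nearly absent from cells rich in secondary granule transcripts. In both libraries 3 of the 8 genes were at least 10-fold higher in monocyte-high than in secondary-granule-high cells, where 2.12% of 9284 genes in the WT-labelled library and 1.56% in the KO-labelled library were so (state markers excluded, and 3 counts put in place of fewer).

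In monocyte-high cells *Cd34* reached 85.2 CPM (73.0 to 98.9) in the WT-labelled library and 194 CPM (170.1 to 221) in the KO-labelled library, against 1.56 CPM (4 UMIs) and 4.78 CPM (8 UMIs) in secondary-granule-high cells. Primary-granule-high cells lay between, at 12.8 and 26.5 CPM, as did macrophage-high cells at 53.3 and 152 CPM and cells low in all lists at 36.1 and 74.7 CPM. In each of the 5 ranges *Cd34* was higher in the KO-labelled library. The log2 ratio was 1.05 (0.44 to 1.66) in primary-granule-high, 1.19 (0.90 to 1.48) in monocyte-high, 1.51 (1.09 to 1.94) in macrophage-high and 1.05 (0.66 to 1.45) in the remaining cells, and in secondary-granule-high cells, where few UMIs were found, it was 1.61 (−0.29 to 3.795). With the KO-labelled library reweighted to the range shares of the other, the log2 ratio of *Cd34* over all cells was 1.21.

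*Flt3* showed the same order of ranges, from 64.4 and 85.0 CPM in monocyte-high cells to 1.17 CPM (3 UMIs) and 1.19 CPM (2 UMIs) in secondary-granule-high cells. Its difference between libraries was not spread evenly. The log2 ratio was 0.89 (0.36 to 1.44) in cells low in all lists and 0.40 (0.01 to 0.79) in monocyte-high cells, but −0.16 (−0.70 to 0.37) in macrophage-high and 0.05 (−0.58 to 0.65) in primary-granule-high cells. The basophil gene *Mcpt8* and *Nras* mark cells described further on. Their log2 ratios were 1.09 and 4.47 in cells low in all lists and 0.42 and 3.44 in monocyte-high cells. In macrophage-high cells, where *Flt3* had −0.16, they were 0.55 and 2.29. In primary-granule-high cells, where *Flt3* had 0.05, they were −0.32 and 0.92. Cells with 2 or more UMIs of basophil and mast cell genes that were low in all lists numbered 34 in the WT-labelled and 73 in the KO-labelled library. The part of these cells in the *Flt3* difference within a range was not tested.

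*Csf1r* was highest in macrophage-high cells, at 97.1 CPM (80.7 to 116) in the WT-labelled library and 63.8 CPM (49.4 to 81.2) in the KO-labelled library, and next in monocyte-high cells, at 62.9 and 56.4 CPM. It fell to 3.51 and 4.78 CPM in secondary-granule-high cells. The macrophage-high range was the only one in which the interval of its log2 ratio, −0.61 (−1.06 to −0.16), excluded 0.

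*Csf3r* was the flattest of the 8 genes but for *Csf2ra*, with a highest-over-lowest ratio of 2.08 in the WT-labelled library and 1.96 in the KO-labelled library. Its levels ran from 18.3 CPM (monocyte-high) to 38.2 CPM (macrophage-high) in the WT-labelled library and from 17.5 CPM (low in all lists) to 34.2 CPM (primary-granule-high) in the KO-labelled library. Each pair of neighbors in that order had overlapping intervals, although the ends of the order in the WT-labelled library did not (28.2 to 50.7 against 12.9 to 25.3). The monocyte over secondary granule log2 ratio of the G-CSF receptor gene was −0.03 (−0.69 to 0.62) in the WT-labelled and −0.24 (−1.04 to 0.52) in the KO-labelled library, and in the latter it was −0.98 (−1.91 to −0.11) when cells were ranked by raw UMI sums. Primary-granule-high and monocyte-high cells had 34.2 CPM (26.5 to 43.4) and 20.2 CPM (12.9 to 30.05) in the KO-labelled library, with overlapping intervals.

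Both GM-CSF receptor chains were present in every range and highest in macrophage-high cells. *Csf2ra* went from 247 and 247 CPM in secondary-granule-high to 456 and 452 CPM in macrophage-high cells of the WT-labelled and KO-labelled libraries. *Csf2rb* went from 21.9 and 18.5 CPM to 53.3 and 36.7 CPM between the same ranges. Its intervals in macrophage-high and monocyte-high cells overlapped in both libraries. *Csf2rb* was lower in the KO-labelled library in all 5 ranges, with log2 ratios from −0.70 to −0.24, although only the interval in primary-granule-high cells (−1.36 to −0.07) excluded 0.

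*Itgam* had another order. It was highest in macrophage-high (92.4 CPM) and secondary-granule-high cells (82.4 CPM) of the WT-labelled library and in secondary-granule-high cells (75.2 CPM) of the KO-labelled library. Monocyte-high cells, where *Cd34* peaked, had 53.0 CPM and 32.0 CPM. The difference between libraries changed sign with the range, with a log2 ratio of 0.43 (0.04 to 0.81) in primary-granule-high cells but −0.73 (−1.30 to −0.18) in monocyte-high and −0.62 (−1.09 to −0.17) in macrophage-high cells.

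*Kit* had too few UMIs for an order. In the WT-labelled library it ran from 1.59 CPM (2 UMIs, macrophage-high) to 5.42 CPM (19 UMIs, primary-granule-high). The KO-labelled library had 7.17 CPM in secondary-granule-high cells (12 UMIs), 7.14 CPM in primary-granule-high cells (14 UMIs) and 0 UMIs in its 550 monocyte-high cells, where 3 counts, the limit taken for a count of 0, would be 2.52 CPM. *Cd34* was at its highest in those same cells.

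**Figure D3:**
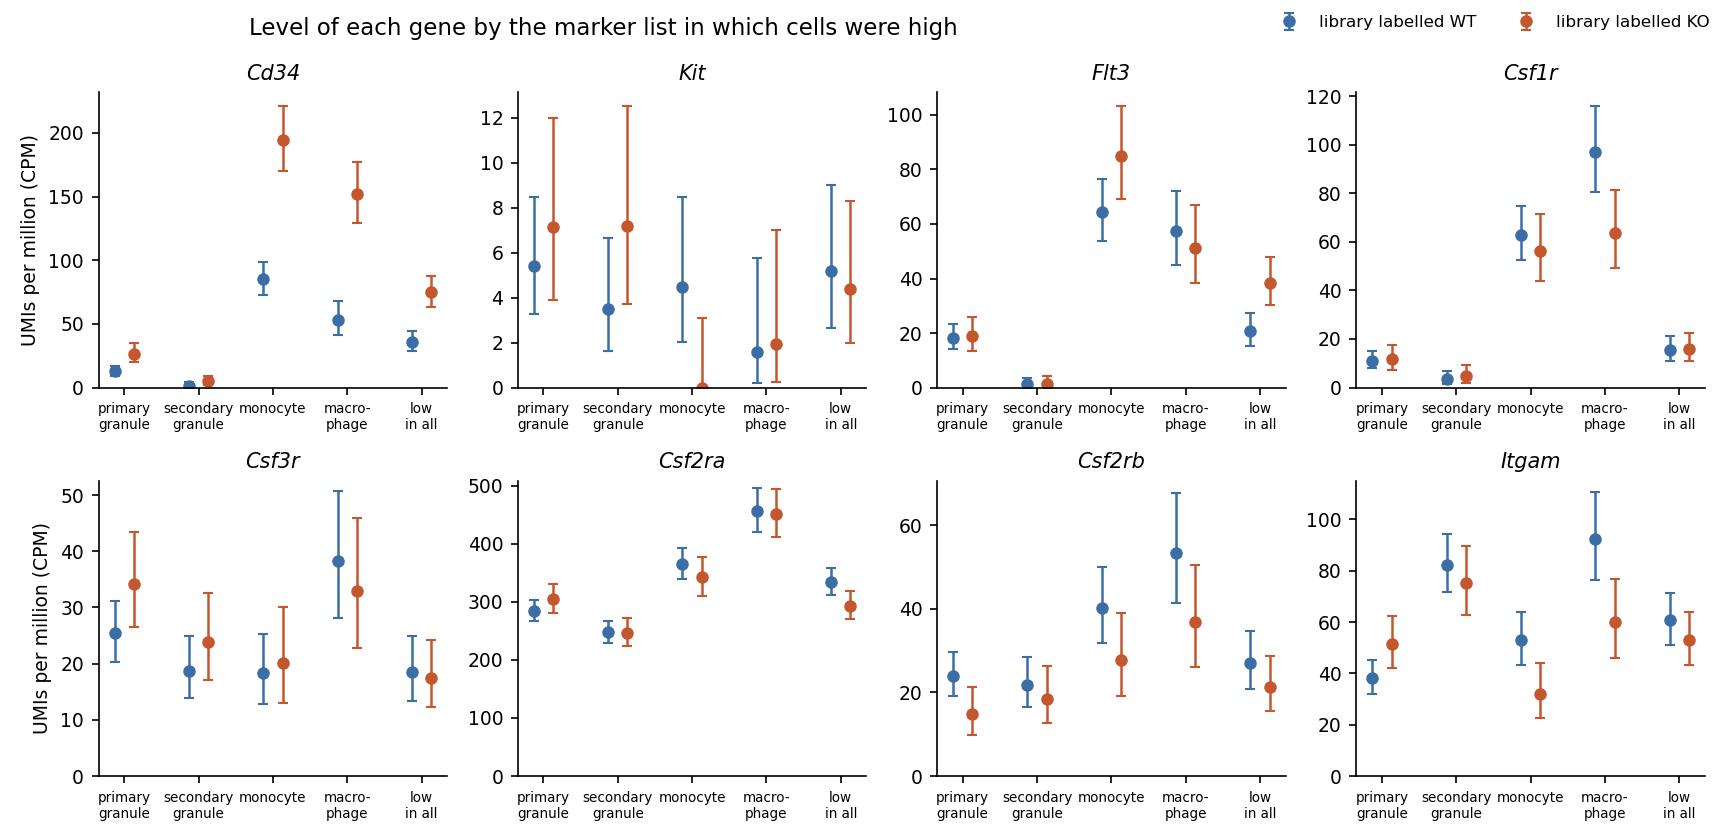
Level of each gene (y axis, CPM, a separate scale for each panel) in cells grouped by the marker list in which they ranked high (x axis), for the WT-labelled library (blue) and the KO-labelled library (orange), with 95% Poisson intervals. *Cd34*, *Flt3* and *Csf1r* peak in monocyte-high or macrophage-high cells and are near 0 in secondary-granule-high cells, whereas *Csf2ra* is well above 0 in every group (lowest 247 CPM).

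Within single cells, *Cd34* and *Flt3* were found together more often than the product of their shares. In thinned cells of the WT-labelled library 7 cells (Poisson interval 2.81 to 14.4) held both genes where the product gave 2.25, and in the KO-labelled library 16 cells (9.15 to 26.0) did where it gave 5.71. *Cd34* and *Csf1r* were found together in 13 cells (6.92 to 22.2) of the KO-labelled library, against 5.90. The other pairs of the 28 had intervals that included the product. *Flt3* and *Csf1r*, which shared ranges, were found together in 3 cells of each library against 2.55 and 2.61. *Hoxa9*, the self-renewal gene of *MLL*-rearranged leukemia, was found in 15.0% (8.80 to 23.1%) of *Cd34*-positive and 13.5% of *Cd34*-negative thinned cells of the WT-labelled library, and in 12.0% (7.93 to 17.2%) and 9.83% in the KO-labelled library, so that the intervals did not separate these cells by *Hoxa9*.

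Division was a further axis. Mitotic-high cells, the top 25% by *Mki67*, *Top2a*, *Birc5* and other mitotic transcripts, had median depths of 3519 and 2435 UMIs, against 2356 and 1672 in the other cells. *Cd34* was lower in them, at 17.8 CPM against 37.5 CPM in the WT-labelled library and 48.7 CPM against 90.9 CPM in the KO-labelled library, with log2 ratios of −1.07 (−1.50 to −0.67) and −0.90 (−1.19 to −0.62). *Csf1r* was lower still, with log2 ratios of −1.38 (−1.87 to −0.92) and −1.91 (−2.57 to −1.30). *Kit* was the only member with a ratio above 0 in both libraries, 0.70 (−0.19 to 1.56) and 0.32 (−0.73 to 1.33), though these intervals included 0. *Csf3r* had −0.77 (−1.24 to −0.32) in the WT-labelled library and 0.13 (−0.31 to 0.55) in the KO-labelled library.

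A small set of cells had high levels of *Cd34* and *Flt3* and low levels of *Csf1r* and *Csf3r*. Cells with at least 2 UMIs of basophil and mast cell genes, chiefly the protease genes *Mcpt8* and *Cpa3*, numbered 87 in the WT-labelled library and 132 in the KO-labelled library. Their median depths were 4348 and 4362 UMIs, against 2566 and 1855 in the other cells. A limit in raw UMIs is passed more readily by deep cells. *Ms4a2* and *Fcer1a*, which encode chains of the IgE receptor, were at 2 UMIs or fewer in each library, so the cells are named here only by their *Mcpt8* and *Cpa3*. *Cd34* stood at 141 CPM (108 to 182) in them and 27.7 CPM in the other cells of the WT-labelled library, and at 186 CPM (154 to 224) and 66.8 CPM in the KO-labelled library. They held 61 of the 372 *Cd34* UMIs of the WT-labelled library and 114 of the 602 of the KO-labelled library, so most *Cd34* UMIs lay outside them.

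*Flt3* was likewise higher in these cells, at 83.4 and 99.6 CPM against 25.0 and 28.9 CPM. *Csf3r*, with 4.64 CPM (2 UMIs) and 4.90 CPM (3 UMIs), and *Csf1r*, with 11.6 CPM (5 UMIs) and 6.53 CPM (4 UMIs), were low, as were *Csf2ra* at 176 and 181 CPM and *Itgam* at 30.1 and 21.2 CPM. The combination of *Cd34* and *Flt3* with little *Csf1r* or *Csf3r* thus occurred in both libraries. Without these cells and those with 2 or more UMIs of megakaryocyte genes, the log2 ratio of *Cd34* was 1.26 (1.05 to 1.47) and that of *Flt3* was 0.21 (−0.06 to 0.47).

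Part of that set in the KO-labelled library was marked by *Nras*, a RAS gene downstream of these receptors. It had 311 UMIs in the WT-labelled library and 1757 in the KO-labelled library, and 82.2% of the latter lay in 89 cells with 5 or more, a limit chosen after the values were seen. The WT-labelled library had 1 such cell. The 89 cells were deep, with a median of 5139 UMIs against 1884 in all kept cells of the KO-labelled library. Of the 89 cells, 61 also met the *Mcpt8* and *Cpa3* limit, 55 were low in all marker lists and 0 were secondary-granule-high. They held *Cd34* at 179 CPM (143 to 221) against 69.4 CPM in the rest of their library and *Flt3* at 83.2 CPM (59.5 to 113) against 31.2 CPM, but *Csf1r* at 4.16 CPM (2 UMIs) against 26.2 CPM, *Csf3r* at 6.24 CPM (3 UMIs) against 26.6 CPM and *Itgam* at 14.6 CPM (7 UMIs) against 57.7 CPM. In cells of neither kind *Cd34* was at 27.7 CPM (24.7 to 30.9) in the WT-labelled library and 64.5 CPM (58.8 to 70.7) in the KO-labelled library. *Flt3* was at 25.0 CPM (22.2 to 28.1) and 27.3 CPM (23.6 to 31.4) in the same cells, with overlapping intervals.

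**Figure D4:**
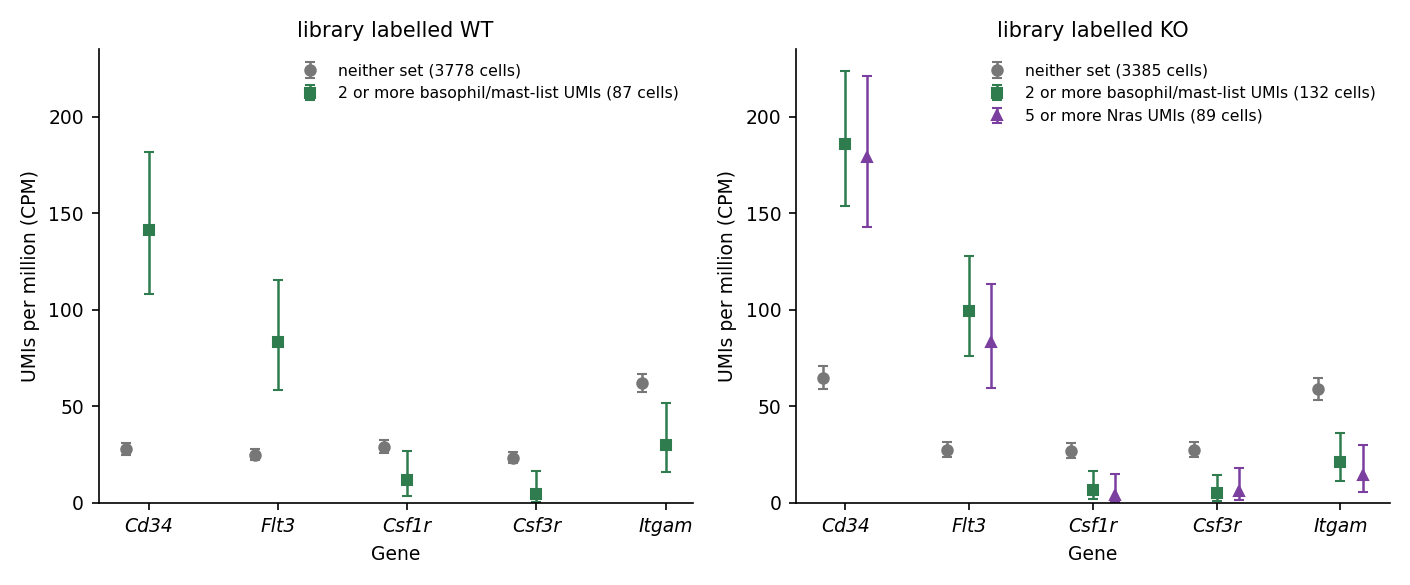
Level of 5 of the genes (y axis, CPM) in cells with 2 or more UMIs of basophil and mast cell genes (green squares), with 5 or more *Nras* UMIs (purple triangles, drawn only for the KO-labelled library because the other had 1 such cell) and in neither set (grey circles), with 95% Poisson intervals; the first 2 sets share 61 cells in the KO-labelled library. *Cd34* and *Flt3* are high and *Csf1r*, *Csf3r* and *Itgam* low in both sets.

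Markers of other cells moved with the libraries. Basophil and mast cell genes summed to 94.7 and 197 CPM, with 1 of 5 genes at 0 in the WT-labelled library, and megakaryocyte genes to 14.6 and 142 CPM, of which *Pf4* had 46 and 633 UMIs. In the 31 cells of the KO-labelled library with 2 or more megakaryocyte UMIs, *Cd34* was at 79.5 CPM (34.3 to 157), near the level of the other cells. Erythroid genes summed to 208 and 538 CPM, B cell genes to 54.3 and 79.0 CPM, T and NK cell genes to 197 and 319 CPM and dendritic cell genes to 2.06 and 3.54 CPM. Apart from leaving out the first 2 sets of cells, as above, their part in the *Cd34* difference was not tested.

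The genes around the receptors were read from lists. Of 9 ligand genes, only *Flt3l* had 50 UMIs, with 6.68 and 8.33 CPM. *Il3* had 1 UMI in the WT-labelled library and 45 in 8 cells of the KO-labelled library, 21 of them in 1 cell, and *Csf3*, which encodes G-CSF, had 0 and 31 UMIs, the latter in 11 cells, none of which held *Il3*. *Kitl*, *Csf1*, *Il34* and *Csf2* had 6 UMIs or fewer per library, and *Il5* and *Thpo* had 0.

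Of 27 other cytokine and chemokine receptor genes, 21 were measured with 50 or more UMIs. Of these, 1 was higher by 1.5-fold or more in the KO-labelled library and 3 were lower, with a median log2 ratio of −0.16. These counts lay near the shares of all genes, 6.79% higher and 11.8% lower. The higher one was *Il2rg*, the common gamma chain (log2 ratio 1.01), followed by *Ifnar1* (0.51) and *Cxcr4* (0.43). The lower ones were *Cxcr2*, a chemokine receptor of mature neutrophils (−2.27), *Il6ra* (−1.16) and the decoy receptor *Il1r2* (−0.89). *Il3ra*, the IL-3 partner of *Csf2rb*, had 47.9 and 58.3 CPM.

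Among 37 genes of receptor signalling, 32 were measured, with 3 higher, 3 lower and a median of −0.09. These counts, too, lay near the shares of all genes, 6.79% higher and 11.8% lower. *Nras* (3.06) and the feedback inhibitors *Socs1* (0.95) and *Socs3* (0.63) were higher, and the kinase gene *Jak2* (−0.75), the phosphatase gene *Ptpn11* (−0.69) and *Pim1* (−0.68), a STAT5 target, were lower. Of 25 further stem and progenitor surface genes, 19 were measured, 1 was higher and 4 were lower, with a median of −0.29, where 6.79% of all genes were higher and 11.8% lower. *Cd81* (0.84) was the higher one, followed by *Cd9* (0.57) and *Ly6e* (0.50), and *Cd38* (−1.57), *Ptprc* (−0.97) and *Cd244* (−0.85) were the lowest. *Ly6a*, the gene for Sca-1, was under the limit of 50 UMIs, with 10 UMIs in 9 cells and 25 UMIs in 12 cells. Of the 25 UMIs in the KO-labelled library, 14 lay in 1 cell. The *Ly6a* log2 ratio of 1.88 (0.77 to 3.10) thus rested largely on that cell. Of 21 integrin and adhesion genes, 15 were measured, 1 was higher (*Itga2b*, a megakaryocyte gene, 2.33) and 2 were lower (*Tln1*, −1.27, and *Itga1*, −0.65), with a median of −0.12. *Itga5* (0.56) and *Itgb7* (0.37) came next at the upper end and *Itga4* (−0.33) at the lower. The counts of higher and lower integrin and adhesion genes lay near the same shares of all genes.

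Across the 10 groups of range and library, the genes most like each member were sought among 6240 genes with at least 200 UMIs, by Pearson's r of log2(CPM + 10). These correlations describe 10 groups that share 2 libraries. *Cd34* was most like *Bcl2* (0.98), a survival gene, *Tmem251* (0.98) and *Bmyc* (0.98). *Flt3* was most like *Ly6e* (0.99), the state marker *Ly86* (0.99) and *Pecam1* (0.99), and *Csf1r* like *Dusp22* (0.99), *Mpeg1* (0.99), a macrophage gene, and *Psap* (0.99).

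The other members had their own neighbors. *Csf2ra* was most like *Galnt11* (0.97), *Dpep2* (0.97) and *Hspa1a* (0.97), *Csf2rb* like *Tnfaip8l2* (0.97), *Bin2* (0.97) and *Rgs2* (0.97), and *Itgam* like *1110008P14Rik* (0.98), *Stx11* (0.93) and *Grina* (0.93). The best matches of *Csf3r*, *Arfgap1* (0.84), *Ppil2* (0.83) and *Ubtd1* (0.81), and of *Kit*, *Def6* (0.92), *Gm20342* (0.90) and *Fam132a* (0.89), were less close. *Kit*, with 51 and 37 UMIs, lay under the limit set for the genes searched, so no pattern can be read from its matches. Among the members themselves r was 0.94 for *Cd34* and *Flt3*, 0.90 for *Flt3* and *Csf1r*, 0.93 for *Csf1r* and *Csf2ra*, and −0.44 for *Cd34* and *Itgam*.

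Spread between cells was compared on thinned counts by the Fano factor, the variance over the mean. It was higher in the KO-labelled library for *Cd34*, *Flt3*, *Csf1r* and *Csf3r* in cells thinned to 1000 UMIs and in cells thinned to 1500 UMIs. For *Csf2ra* and *Csf2rb* it was higher there only at 1000 UMIs. The share of all genes with a higher value in that library was not computed. The values that follow are at 1000 UMIs. *Cd34* had 1.16 in the WT-labelled library and 1.29 in the KO-labelled library, beside medians of 1.11 and 1.22 for genes whose mean was within 1.25-fold. *Csf1r* had 1.15 and 1.33 beside 1.11 and 1.18, and *Csf3r* had 1.05 and 1.31 beside 1.10 and 1.18, the latter with up to 5 UMIs in 1 cell. *Kit* (1.15 and 0.996) and *Itgam* (1.15 and 1.07) went the other way. The genes of like mean rose in the same direction, so that no spread particular to the receptor genes can be read from these values.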

How the data were processed

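The authors processed the reads with Cell Ranger and deposited 1 matrix of raw UMI counts for both libraries. The submitters' processing notes give Cell Ranger 1.3.1 and mm10, and the study's methods give another version, so the version is uncertain. Neither says whether counting used strand. Libraries were told apart by barcode suffix, as in the study's code. The genes, lists and limits were chosen with earlier results of these data known.

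Here counts were summed over cells with at least 500 genes and scaled to CPM (Python 3.11.15, numpy 2.4.6, scipy 1.17.1). Sums carry exact Poisson, shares exact (Clopper-Pearson), share differences Newcombe and ratios exact conditional binomial intervals, all 95% and for counting error only. Thinning drew 1000 UMIs per cell without replacement. Doublets were kept, and an alternative left out the 5% of cells with most UMIs. Ratios across genes needed 50 UMIs. Named genes were all 8 members, the 3 highest and 3 lowest log2 ratios of each list, and the 3 genes most like each member; others were named after their values were seen. Scripts were tested on simulated data. Positions are from GENCODE M21 (GRCm38), matched on Ensembl identifiers, and sequences from RefSeq (GRCm38.p6).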

Additional observations from a re-analysis of the deposited data

Results flagged for a closer look

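*Itgam* moved in opposite directions between the ranges of the marker lists, which is why it is listed here. The log2 ratio (KO-labelled over WT-labelled) was 0.43 in primary-granule-high cells but −0.73 in monocyte-high and −0.62 in macrophage-high cells, with intervals that excluded 0 in each. The difference between ranges was not tested, since each range holds 1 library per genotype.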

How the results depend on the processing

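No paired analysis was possible because each genotype is 1 library, and for the same reason no replicate could be left out. Of 105 log2 ratios of the members under the alternatives, 94 lay within the interval of the main value and 0 reversed a ratio whose interval excluded 0. *Cd34* ran from 1.12 to 1.35. Cells with 1000 or more genes gave 0.66 for *Flt3*, −0.53 for *Csf3r* and −0.12 for *Csf2ra*. Thinning to 1000 UMIs gave 0.59 for *Csf3r* and −0.72 for *Csf2rb*, and thinning to 1500 UMIs gave −0.20 for *Csf2ra*, −0.81 for *Csf2rb* and −0.38 for *Itgam*. Cells matched on depth gave −0.64 for *Csf1r*, −0.19 for *Csf2ra* and −0.45 for *Itgam*. Genes higher by 1.5-fold or more were then 2 in place of 1 with 1000 genes or either thinning (adding *Flt3*, *Csf3r* or *Kit*). Genes lower were 1 with either thinning and 2 in matched cells, in place of 0. The *Kit* ratio so counted, in cells thinned to 1500 UMIs, was 0.65 with an interval of −0.31 to 1.61. The shares of all genes past 1.5-fold under these alternatives were not computed. The cause of these moves was not tested. No scaling moved the median of all genes by over 0.1. The alternatives without cells of other lists, *Il3* or *Csf3* cells, *Nras* cells, the second *Itgam* identifier or *Ly6c2* were chosen after seeing the data.

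Monocyte over secondary granule log2 ratios moved for *Csf3r* (0.81, WT-labelled library, thinned), *Csf2ra* (0.23, KO-labelled library, raw sums as score) and *Itgam* (−0.12, WT-labelled library, percentile limit 90), and *Kit* in the KO-labelled library gave none. Thinned share differences, in percentage points, were 3.39 for *Cd34*, 0.64 for *Flt3*, −0.35 for *Csf1r*, 0.82 for *Csf3r* (reversed from −1.39), −0.38 for *Csf2ra*, −1.28 for *Csf2rb* and −1.05 for *Itgam*. At own depth 7 pairs lay above the product of shares in the WT-labelled library, in place of 1, and 1 lay below in each library, in place of 0. Over the 5 lists 6 genes were higher and 12 lower, where the shares of all genes were 6.79% and 11.8%. With 20 or more UMIs 10 were higher, and with a fold limit of 2 there were 3 higher and 4 lower. The shares of all genes under these other limits were not computed.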

Other observations

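The cells under 500 genes, left out of the comparisons above, numbered 203 in the WT-labelled library and 695 in the KO-labelled library. *Itgam* was higher in them than in kept cells, at 264 CPM (201 to 341, 59 UMIs) in the WT-labelled library and 114 CPM (90.02 to 143, 76 UMIs) in the KO-labelled library, and the intervals did not overlap. *Itgb2* stood at 605 CPM (507 to 716) and 549 CPM (494 to 608), also above the kept cells. *Cd34*, by contrast, had 1 UMI (4.48 CPM) and 24 UMIs (36.1 CPM), and *Kit* had 0 and 1. The shallowest cells thus held more of the Mac-1 transcripts and less *Cd34* per UMI than the kept cells of the same library.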
